A study of Homo sapiens with 3 samples.

Results

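Glycolysis and hypoxia-response genes were followed in RNA-sequencing libraries of A549 cells, an established human lung adenocarcinoma line, in which the DEAD-box RNA helicase DDX24 had been knocked down. The group holds 33 of the 58735 genes counted, chosen by name: 17 glycolytic enzymes, 3 transporters of glucose or lactate, 3 regulators of glycolytic flux, 3 genes of oxygen sensing and 7 other targets of hypoxia. All 33 names were found in the count values, each once. There were 3 libraries of total RNA, 1 per condition: Control-sh, from cells with the control vector, and DDX24-sh1 and DDX24-sh2, each from cells with a different shRNA against DDX24 (sh1 and sh2 from here on). The methods of the study describe stable lines made with lentiviral shRNA vectors and selected with puromycin, with the empty vector as the control, while a legend of the study calls the control an shRNA. All 3 were grown in F12K medium with 10% FBS at 37 °C and 5% CO2, and no low-oxygen or glucose-deprived condition is among them.

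Glycolysis splits glucose into pyruvate and yields ATP without oxygen, and in many tumour cells most of the pyruvate is turned to lactate and exported. When oxygen falls, prolyl hydroxylases of the EGLN family stop marking the transcription factor subunit HIF1A for destruction, and the stabilised protein binds DNA with its partner ARNT and raises transcription of many genes, among them glucose transporters, most glycolytic enzymes, PDK1, CA9 and EGLN3 itself. HIF1A is mainly controlled through the stability of its protein, so the level of its RNA is no measure of the activity of the pathway. Several glycolytic genes are also driven by other factors such as MYC, which binds the sequence CACGTG, one that holds the core of the hypoxia-response element.

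The stretches of promoter below are shown because HK2, EGLN3 and PFKFB4 were the only members at least 1.5-fold higher in both shRNA libraries, PGK1 is an abundant enzyme and textbook HIF target that moved little, and MXI1 is a hypoxia target that was lower. They come from RefSeq on GRCh38.p14 and run 5′ to 3′ on the strand of the gene, within the 250 bases before an annotated start. Bases that GENCODE 29 counts as exon were left off the ends. Capitals mark the core of the hypoxia-response element, ACGTG or GCGTG, or the reverse complement of either, CACGT or CACGC. The HK2 stretch is chr2:74834920-74835169 on the plus strand, before the more downstream of its RefSeq starts and inside the first intron of the GENCODE transcript. The EGLN3 stretch is chr14:33951082-33951324 on the minus strand and the PFKFB4 stretch chr3:48556924-48556982 on the minus strand. The PGK1 stretch is chrX:78103998-78104173 and the MXI1 stretch chr10:110209981-110210230, both on the plus strand. These 4 lie in introns of longer annotated transcripts of their genes.
HK2: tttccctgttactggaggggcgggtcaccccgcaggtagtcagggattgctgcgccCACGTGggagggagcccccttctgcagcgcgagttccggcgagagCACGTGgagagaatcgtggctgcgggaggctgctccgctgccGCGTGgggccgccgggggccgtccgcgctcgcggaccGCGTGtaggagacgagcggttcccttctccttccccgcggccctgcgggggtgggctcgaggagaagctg
EGLN3: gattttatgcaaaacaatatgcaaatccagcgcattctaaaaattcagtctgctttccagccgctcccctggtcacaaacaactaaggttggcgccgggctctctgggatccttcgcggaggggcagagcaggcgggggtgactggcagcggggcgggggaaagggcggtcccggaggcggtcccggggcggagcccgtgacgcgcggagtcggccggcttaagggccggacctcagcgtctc
PFKFB4: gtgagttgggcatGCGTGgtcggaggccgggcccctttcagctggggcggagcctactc
PGK1: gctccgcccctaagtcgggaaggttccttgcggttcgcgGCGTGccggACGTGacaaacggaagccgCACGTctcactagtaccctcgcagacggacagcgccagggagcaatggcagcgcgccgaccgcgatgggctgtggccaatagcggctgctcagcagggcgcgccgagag
MXI1: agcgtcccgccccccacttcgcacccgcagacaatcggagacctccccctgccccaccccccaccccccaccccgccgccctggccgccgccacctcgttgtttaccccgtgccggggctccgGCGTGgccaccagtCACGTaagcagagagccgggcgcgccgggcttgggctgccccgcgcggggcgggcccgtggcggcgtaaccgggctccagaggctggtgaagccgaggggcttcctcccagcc
The HK2 stretch held 6 matches, with each palindrome CACGTG counted as 2 because it reads the same on both strands, and the PGK1 stretch held 3. The MXI1 stretch held 2 and the PFKFB4 stretch 1. These counts are not comparable, since the stretches have 250 bases for HK2 and MXI1, 176 for PGK1 and 59 for PFKFB4. HK2 has 2 windows and MXI1 has 3, and the window with most matches is shown for each. The EGLN3 stretch had none, and its whole window had none, which says only that these letters are not in that window. Promoter entries were found for 31 of the 33 members, and 25 of the 31 (80.6%) had a match in at least 1 window, beside 65.4% of the 10206 genes that averaged at least 1 CPM, the count scaled to the size of its library, and 47.4% of all 27305 genes with an entry. By role these were 14 of 17 enzymes, 5 of 6 other hypoxia targets, all 3 flux regulators, 2 of 3 oxygen-sensing genes and 1 of 2 transporters. The members without a match were EGLN3, LDHB, P4HA2, PGAM1, PKM and SLC2A1. A match is a run of letters and not a measured binding site, and members with several starts had more windows to match in.

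The counts summed to between 17218884 and 18337471 per library, and between 22462 and 23900 genes had at least 1 count. DDX24 had 2010 counts in Control-sh, 637 in sh1 and 765 in sh2, a log2 ratio of -1.75 (95% counting interval -1.89 to -1.63) and of -1.47 (-1.60 to -1.35). Mitochondrial genes took 4.36%, 5.13% and 7.04% of counts in the same order. Of 5 epithelial markers KRT8 had at least 63926 counts in each library and KRT18 at least 22548. KRT19 had 1001 counts in Control-sh, 2251 in sh1 and 2728 in sh2. CDH1 had 538, 358 and 261, and EPCAM had at most 32. The alveolar markers SFTPB and SFTPC had at most 4 counts, and the leukocyte markers PTPRC and CD3E had 0. None of the 4 alveolar and lung, 4 leukocyte and 3 endothelial markers averaged at least 1 CPM. Of 4 fibroblast markers 2 did. Of these PDGFRA was at least 2-fold higher in sh1, beside 2.32% of all genes, but not in sh2. The deposited counts and FPKM do not name the shRNA libraries alike. The FPKM are the counts divided by length and 1 constant only when the 2 names are exchanged, which then held for 100% of 11641 genes with at least 50 counts, against 5.33% and 5.32% with the names as given. The names of the counts are used throughout, and the correct ones are unknown. Each condition has 1 library, so no difference could be tested. The intervals are exact 95% binomial intervals from the counts of 2 libraries and cover counting error only, since cultures vary and reads that carry no molecular identifier can be copies of 1 molecule. In bulk RNA, fewer cells of a kind and less RNA per cell cannot be told apart. Both ratios use the same Control-sh library.

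Most glycolytic enzymes were slightly higher in both shRNA libraries than in Control-sh, while the other hypoxia targets were spread around the control level. The median log2 ratio of the 17 enzymes was 0.17 in sh1 and 0.22 in sh2. That of the 7 other hypoxia targets was -0.08 and -0.06. Both medians of the targets were the ratios of CA9, which had 6 counts in each library and averaged less than 1 CPM. Among the 6 targets averaging at least 1 CPM the median was -0.03 in sh1 and -0.16 in sh2. Over the 13984 genes averaging at least 1 CPM the median was -0.02 and -0.03. Among the enzymes 15 of 17 lay above 0 in sh1 and 16 of 17 in sh2, against 3 of 7 other hypoxia targets in each. Of the 13984 genes 6626 lay above 0 in sh1 and 6572 in sh2, so the other hypoxia targets were near the share of all genes. The gap between the medians of the enzymes and the other hypoxia targets was 0.24 in sh1 and 0.28 in sh2. With members averaging at least 1 CPM only, which leaves out CA9, it was 0.20 in sh1 and 0.38 in sh2. With hypoxia targets and enzymes of at least 10 CPM only, 5 of the 7 targets, it was 0.08 in sh1 and 0.18 in sh2. The median of those 5 targets was then 0.07 and 0.01. Large changes were few: HK2 and EGLN3 were at least 2-fold higher in both shRNA libraries, 2 of the 32 members averaging at least 1 CPM, beside 1.19% of all 13984 genes, and 0 members were at least 2-fold lower in both, beside 1.38%. HK2 passed that limit only through the shRNA libraries, where it was higher, so its place in the count follows in part from the limit. Taken alone, sh1 had 3 members at least 2-fold higher (beside 2.32% of all genes) and 0 lower (beside 2.27%), and sh2 had 2 higher (beside 2.89%) and 1 lower (beside 3.07%).

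**Figure D1:**
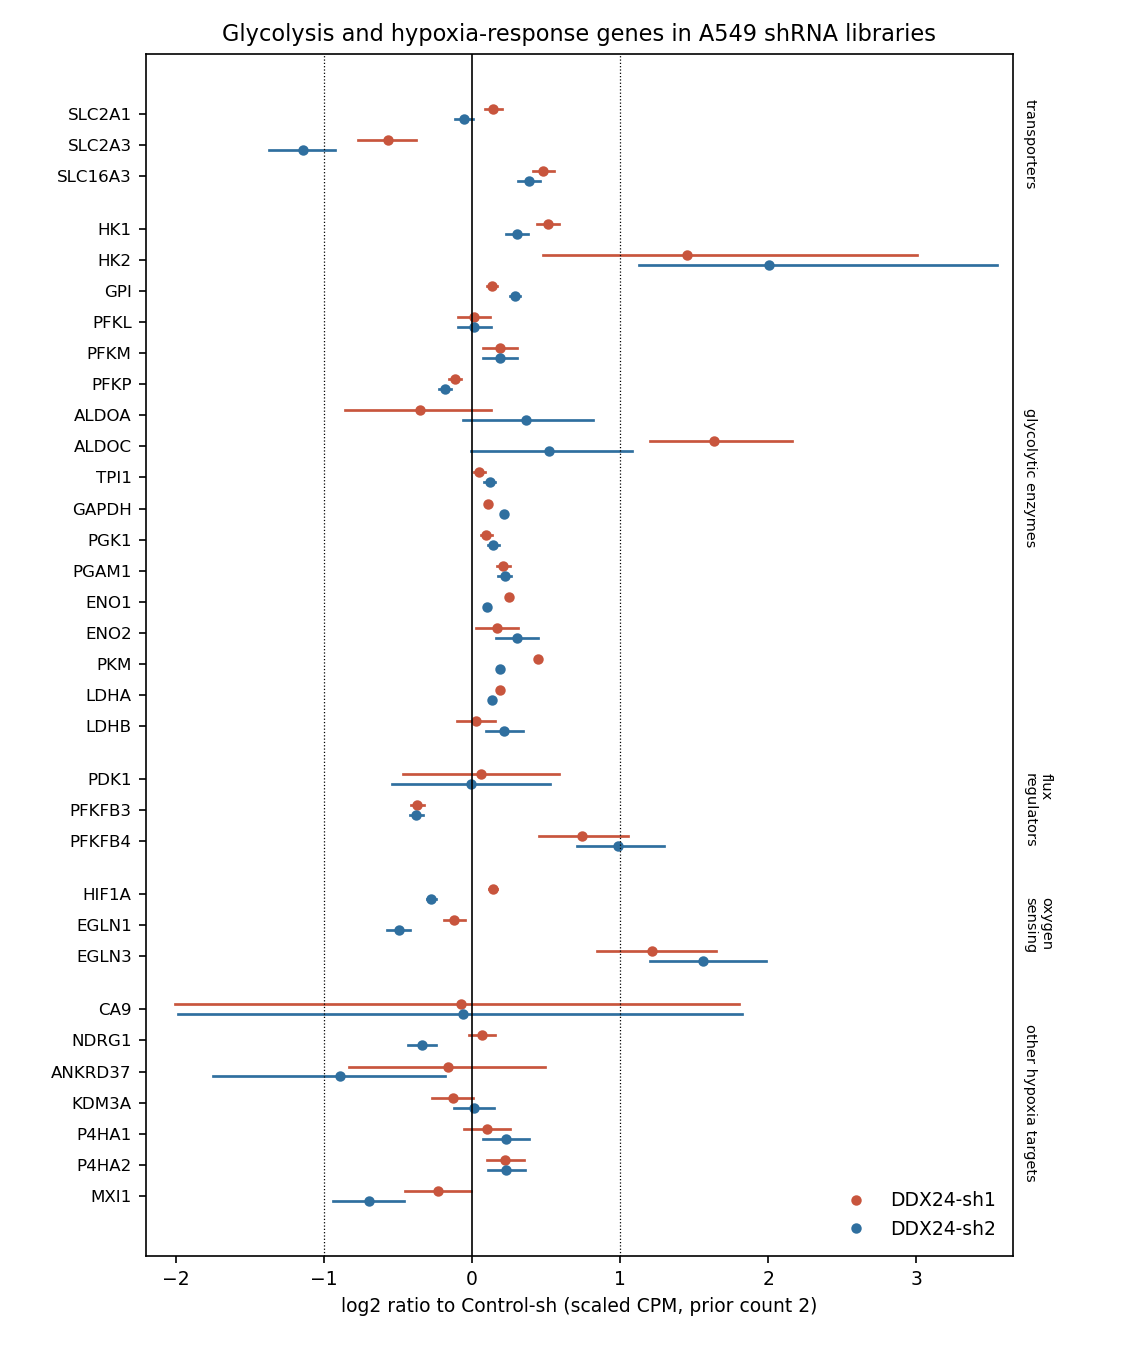
Log2 ratio of each of the 33 genes to Control-sh, with sh1 in red and sh2 in blue, grouped by role. Points are ratios of scaled CPM with a prior count of 2, bars are exact 95% counting intervals, and dotted lines mark 2-fold. HK2 and EGLN3 lie to the right of the upper 2-fold line in both libraries, and most other enzymes lie between 0 and 0.6.

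Ratios whose counting interval lay beyond 0 were taken as larger than counting error. In sh1 this held upward for 19 of the 32 members that passed the expression limit, beside 23.6% of all genes, and downward for 5, beside 29.5%. In sh2 it held upward for 18, beside 23.6%, and downward for 8, beside 30.8%. Of the 17 enzymes 13 were higher by this measure in each library and 1, PFKP, was lower. Of the 6 other hypoxia targets that passed the limit, 1 was higher and 1 lower in sh1, and 2 were higher and 3 lower in sh2. Abundant genes have narrow intervals and so pass more often. Among the 2127 genes averaging at least 100 CPM, 36.5% were higher and 40.1% lower in sh1, and 32.2% were higher and 47.1% lower in sh2. The 10 enzymes at that level had 9 higher and 1 lower in each library.

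The transporters did not move together. SLC2A1, the main glucose carrier of most tumour cells, had 4573 counts in Control-sh, 5413 in sh1 and 4660 in sh2. Its log2 ratio was 0.14 (interval 0.09 to 0.20) in sh1 and -0.05 (-0.11 to 0.01) in sh2, so only the first exceeded counting error. SLC2A3, a glucose carrier of high affinity best known from neurons, had 519 counts in Control-sh, 374 in sh1 and 248 in sh2. It was the member with the lowest ratio in each library, -0.57 (-0.77 to -0.38) and -1.14 (-1.37 to -0.93), and the only member at least 2-fold lower in either library. Per length, SLC2A1 made up 92.0% of the sum of both glucose carriers in Control-sh, 94.97% in sh1 and 96.1% in sh2. SLC16A3, which exports lactate, had 2590, 3877 and 3574 counts in Control-sh, sh1 and sh2. It was higher in both shRNA libraries, by 0.48 (0.41 to 0.55) and 0.38 (0.31 to 0.46) on the log2 scale.

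Hexokinase, the enzyme that traps glucose in the cell, came almost wholly from HK1 in these cells. HK1 had 2608 counts in Control-sh, 3987 in sh1 and 3398 in sh2, with log2 ratios of 0.51 (0.44 to 0.58) and 0.30 (0.23 to 0.38). HK2, the isozyme that hypoxia induces in many tumours, had 8, 27 and 40 counts in the same order. Its ratios were the largest of any member in sh2 and the second in sh1, at 2.003 (1.13 to 3.55) and 1.45 (0.48 to 3.004), but they rest on 8 control counts, and HK2 reached the limit of 1 CPM only through the shRNA libraries. Per length, HK2 was 0.317% of both hexokinases in Control-sh, 0.698% in sh1 and 1.21% in sh2. HK1 therefore carried nearly all of the hexokinase RNA in every library.

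GPI, which turns glucose 6-phosphate into the fructose form, had 12225 counts in Control-sh, 14371 in sh1 and 15813 in sh2. Its ratio was 0.13 (0.10 to 0.17) in sh1 and 0.29 (0.26 to 0.32) in sh2. Phosphofructokinase is the committed and most regulated step, and its forms differed in direction. Its main form here, PFKP, had 9939, 9850 and 9280 counts in Control-sh, sh1 and sh2 and was lower in both shRNA libraries, with ratios of -0.11 (-0.15 to -0.07) and -0.18 (-0.22 to -0.14). The muscle form PFKM had 1102, 1346 and 1329 counts and was higher by 0.19 (0.07 to 0.30) and 0.19 (0.07 to 0.31). The liver form PFKL had 1289, 1395 and 1378 counts and ratios of 0.01 (-0.10 to 0.12) and 0.02 (-0.10 to 0.13), both within counting error. PFKP made up 87.4% of phosphofructokinase RNA per length in Control-sh, 85.7% in sh1 and 85.1% in sh2.

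Aldolase cuts the 6-carbon sugar, and its 2 measured genes were both low in count. ALDOA, the main aldolase of muscle and most cultured cells, had 78 counts in Control-sh, 65 in sh1 and 107 in sh2, with ratios of -0.35 (-0.86 to 0.13) and 0.37 (-0.06 to 0.82). Its counts are uncertain, since 42.3% of its exonic bases are shared with AC093512.2 on the same strand and 53.5% with any other gene, and how reads in such stretches were counted is not given. ALDOC, the brain form, had 49, 167 and 75 counts in Control-sh, sh1 and sh2. It was 3.10-fold higher in sh1, a log2 ratio of 1.63 (1.20 to 2.16), whereas in sh2 it was 0.52 (-0.01 to 1.08), within counting error. The 2 shRNA libraries differed from each other in ALDOC by -1.11 (-1.55 to -0.73), sh2 being lower.

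The enzymes that follow were among the most abundant transcripts of the cells and differed little between libraries. TPI1, which interconverts the triose phosphates, had 11588 counts in Control-sh, 12853 in sh1 and 13305 in sh2, with ratios of 0.05 (0.01 to 0.09) and 0.12 (0.08 to 0.15). GAPDH, which oxidises glyceraldehyde 3-phosphate and is often used as a reference gene, had 41100, 47470 and 50530 counts and ratios of 0.11 (0.09 to 0.13) and 0.22 (0.20 to 0.24). PGK1, the first ATP-yielding enzyme, had 10962, 12543 and 12804 counts and ratios of 0.09 (0.06 to 0.13) and 0.14 (0.11 to 0.18). All 3 were higher in both shRNA libraries by less than 0.25 on the log2 scale. PGAM1, which moves the phosphate group of phosphoglycerate, had 7645 counts in Control-sh, 9488 in sh1 and 9413 in sh2. Its ratios were 0.21 (0.17 to 0.26) and 0.22 (0.18 to 0.26). Processed copies of these genes are many in the genome: 62 annotated GAPDH pseudogenes held 205 counts together in Control-sh, 326 in sh1 and 272 in sh2, small beside GAPDH itself.

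ENO1, the main enolase, had 56848 counts in Control-sh, 72407 in sh1 and 64602 in sh2, and its ratios were 0.25 (0.23 to 0.27) and 0.10 (0.09 to 0.12). ENO2, the neuronal form, had 740, 892 and 966 counts and ratios of 0.17 (0.03 to 0.31) and 0.30 (0.16 to 0.44). ENO1 was the higher of the pair per length by far, at 98.4% of their sum in Control-sh. PKM, the pyruvate kinase gene whose alternative exons give the M1 and M2 forms, had 88435 counts in Control-sh, 129137 in sh1 and 106709 in sh2. It was 1.36-fold higher in sh1, a log2 ratio of 0.45 (0.43 to 0.46), and 1.14-fold higher in sh2, a ratio of 0.19 (0.18 to 0.20). Counts per gene do not separate its forms. LDHA, which reduces pyruvate to lactate, had 36383, 44475 and 42197 counts in Control-sh, sh1 and sh2 and ratios of 0.19 (0.17 to 0.21) and 0.13 (0.11 to 0.15). LDHB, the heart form, had 936, 1022 and 1152 counts and ratios of 0.03 (-0.10 to 0.16) and 0.22 (0.09 to 0.34). LDHB shares 33.4% of its exonic bases with AC010197.2, and the same holds for it. LDHA was 94.9% of both per length in Control-sh, 95.4% in sh1 and 94.6% in sh2.

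**Figure D2:**
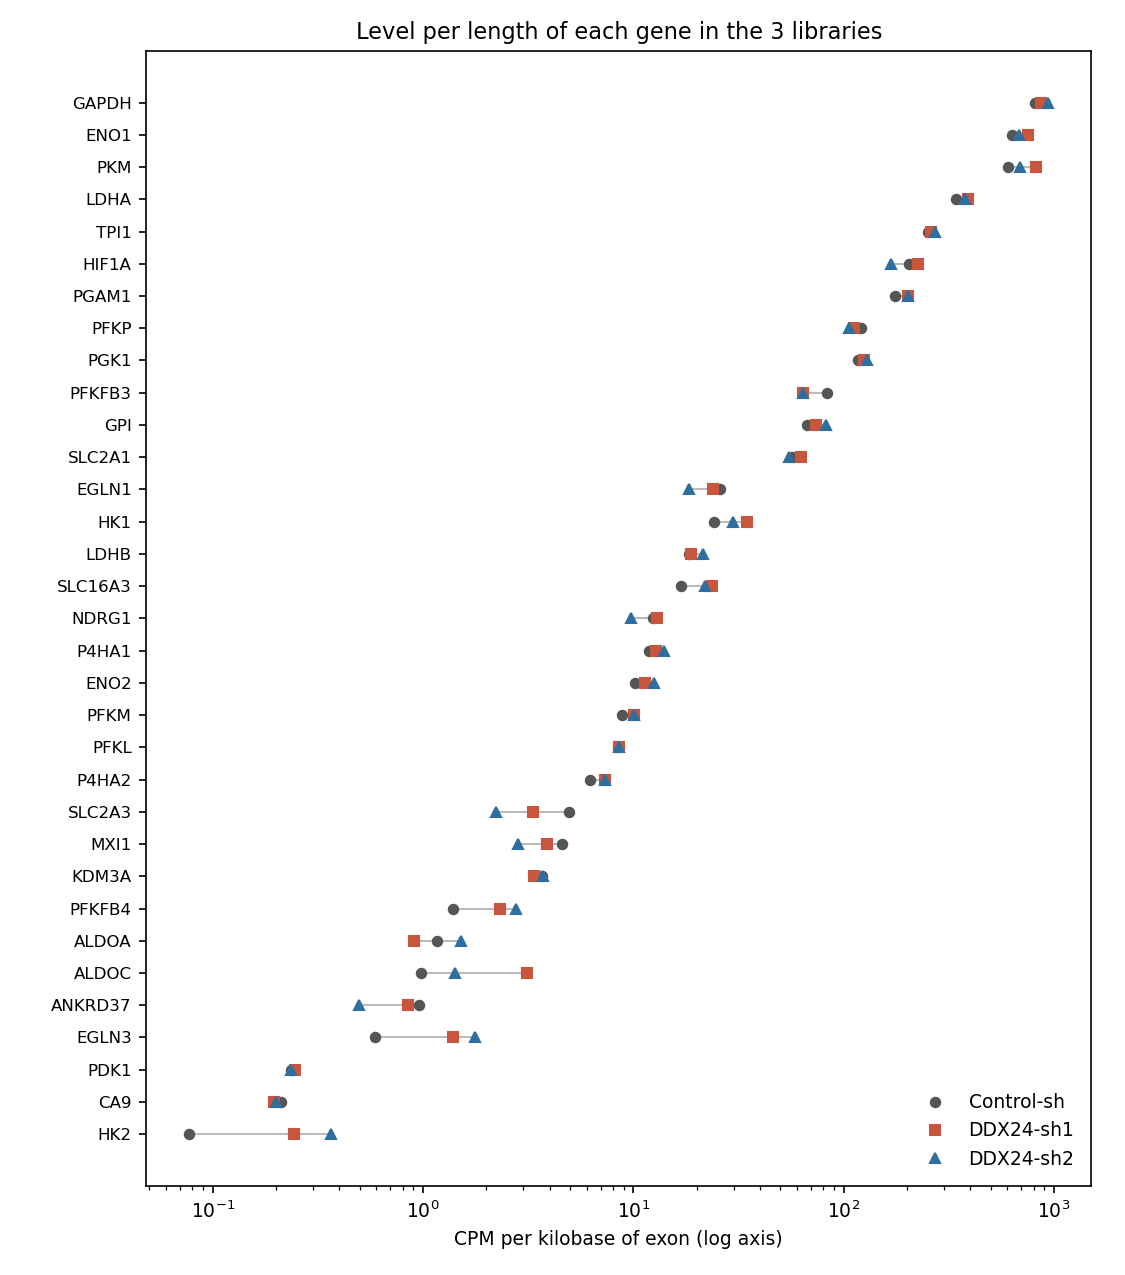
Level of each of the 33 genes in the 3 libraries, in CPM per kilobase of exon on a log axis, ordered by the level in Control-sh (circles, with squares for sh1 and triangles for sh2). Levels in Control-sh run from 0.0773 for HK2 to 808 for GAPDH, and the 3 symbols of the abundant enzymes nearly coincide while those of HK2, EGLN3, ALDOC, PFKFB4 and SLC2A3 are apart.

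Levels between genes were compared per length, as CPM per kilobase of exon. In Control-sh the order began with GAPDH at 808, ENO1 at 631 and PKM at 605, which ranked 27, 32 and 33 among all genes. LDHA followed at 343 and TPI1 at 251, then HIF1A at 204, PGAM1 at 174, PFKP at 120 and PGK1 at 117. In sh1 PKM, at 824, stood above ENO1, at 750, while in sh2 the 2 were at 690 and 678. The lowest levels in Control-sh were those of PDK1 at 0.236, CA9 at 0.210 and HK2 at 0.0773.

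The enzymes together took a larger share of the RNA in the shRNA libraries. Their 17 genes held 1.64% of all counts in Control-sh (exact interval 1.63 to 1.64), 1.97% in sh1 (1.96 to 1.98) and 1.87% in sh2 (1.86 to 1.87). ALDOA, whose counts are uncertain, gave only 78, 65 and 107 of these counts in Control-sh, sh1 and sh2. After scaling, the sum was 1.20-fold the control in sh1 and 1.12-fold in sh2. PKM was the largest single part of it, with 0.514%, 0.704% and 0.598% of all counts in Control-sh, sh1 and sh2. Without PKM the sum was 1.12-fold the control in sh1 and 1.11-fold in sh2, a log2 ratio of 0.16 and 0.15, so the difference between the shRNA libraries in the sum lay mostly in PKM. The 7 other hypoxia targets held 4849 counts in Control-sh, 5376 in sh1 and 4792 in sh2. Their summed ratio was 0.05 (-0.01 to 0.11) in sh1 and -0.10 (-0.16 to -0.04) in sh2.

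**Figure D3:**
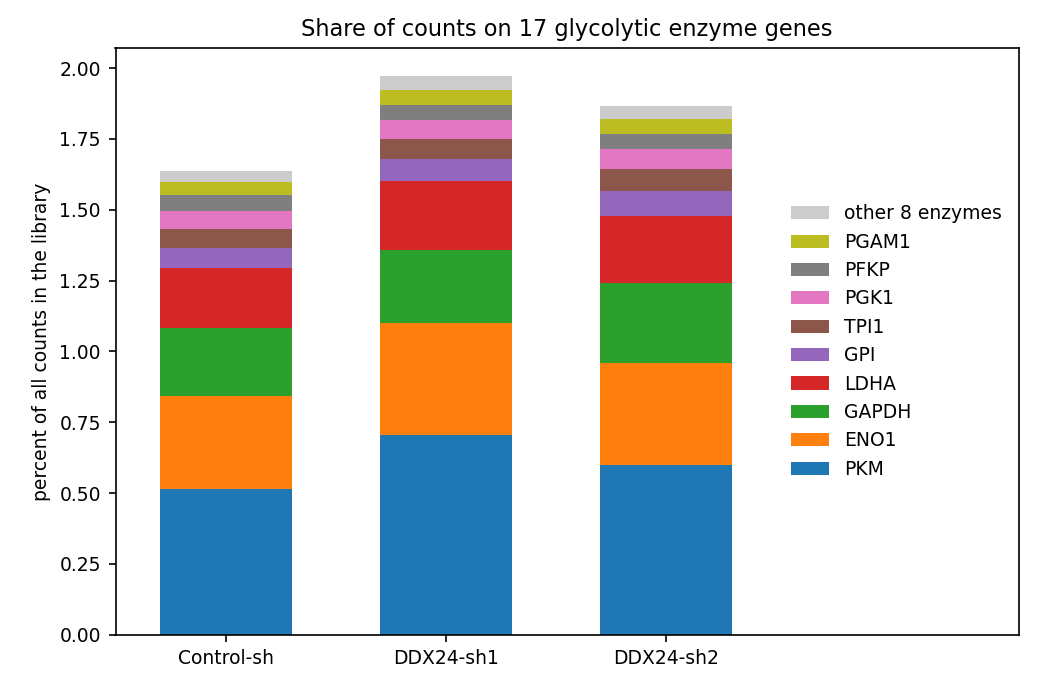
Percent of all counts in each library that fell on the 17 glycolytic enzyme genes, stacked by gene, with the 8 least counted shown together in light grey. The stack reaches 1.64% in Control-sh, 1.97% in sh1 and 1.87% in sh2, and PKM is its largest block in each.

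The regulators of glycolytic flux differed in sign. PFKFB3 and PFKFB4 make and break fructose 2,6-bisphosphate, the strongest activator of phosphofructokinase. PFKFB3, the more abundant, had 8647 counts in Control-sh, 7175 in sh1 and 7048 in sh2. It was lower in both shRNA libraries by almost the same amount, with ratios of -0.37 (-0.41 to -0.32) and -0.38 (-0.42 to -0.33). PFKFB4 had 144, 260 and 304 counts in Control-sh, sh1 and sh2 and was higher, 1.68-fold and 1.98-fold, with ratios of 0.74 (0.45 to 1.06) and 0.99 (0.71 to 1.29). PFKFB4 made up 1.64% of both per length in Control-sh, 3.50% in sh1 and 4.14% in sh2, so PFKFB3 outweighed it throughout. PDK1, the kinase that keeps pyruvate out of the citrate cycle and a common marker of HIF activity, had 60, 67 and 63 counts. Its ratios of 0.06 (-0.47 to 0.59) and -0.01 (-0.54 to 0.52) were within counting error, and at this depth a difference of up to about 0.5 on the log2 scale was not detectable.

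Among the genes of oxygen sensing, HIF1A was in opposite positions in the 2 shRNA libraries. It had 17899 counts in Control-sh, 21176 in sh1 and 15655 in sh2. Its ratio was 0.14 (0.11 to 0.17) in sh1 and -0.27 (-0.31 to -0.24) in sh2, and the libraries differed from each other by -0.42 (-0.45 to -0.39), sh2 being lower. EGLN1, the main prolyl hydroxylase for HIF1A, had 3203, 3160 and 2405 counts in Control-sh, sh1 and sh2. Its ratios were -0.12 (-0.19 to -0.05) and -0.49 (-0.57 to -0.42), lower in both libraries and more so in sh2. EGLN3, a prolyl hydroxylase that is itself a target of hypoxia, had 74, 187 and 235 counts and was 2.32-fold higher in sh1 and 2.95-fold higher in sh2, with ratios of 1.22 (0.84 to 1.65) and 1.56 (1.20 to 1.98). Per length EGLN3 was 2.23% of the sum of EGLN1 and EGLN3 in Control-sh, 5.52% in sh1 and 8.80% in sh2. EGLN1 was thus the more abundant of the pair in every library.

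The other hypoxia targets had no common direction. CA9, the cell-surface carbonic anhydrase used as a marker of tumour hypoxia, had 6 counts in each library and did not pass the limit of 1 CPM. Of its exonic bases 38.5% are shared with ARHGEF39 on the opposite strand, and how reads there were counted is not given. MXI1, an antagonist of MYC, had 359 counts in Control-sh, 328 in sh1 and 234 in sh2 and was lower in both, with ratios of -0.23 (-0.45 to -0.01) and -0.69 (-0.94 to -0.46). NDRG1, a stress-response gene, had 2067, 2323 and 1728 counts and ratios of 0.07 (-0.02 to 0.15) and -0.34 (-0.43 to -0.25). MXI1 and NDRG1 were each further from the control in sh2 than in sh1. ANKRD37, an ankyrin-repeat gene induced by HIF1A, had 42, 40 and 23 counts in Control-sh, sh1 and sh2. Its ratios were -0.16 (-0.83 to 0.49) and -0.89 (-1.75 to -0.18). Of its exonic bases 35.2% are shared with UFSP2 on the opposite strand. Without strand in the counting, reads in those shared bases cannot be told apart from those of UFSP2.

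KDM3A, a histone demethylase for lysine 9 of histone H3, had 841 counts in Control-sh, 823 in sh1 and 897 in sh2. Its ratios were -0.13 (-0.27 to 0.01) and 0.01 (-0.13 to 0.15), both within counting error. P4HA1 and P4HA2 are catalytic subunits of the enzyme that hydroxylates proline in collagen. P4HA1 had 628, 721 and 778 counts and ratios of 0.10 (-0.06 to 0.26) and 0.23 (0.07 to 0.38). P4HA2 had 906, 1135 and 1126 counts and ratios of 0.22 (0.10 to 0.35) and 0.23 (0.11 to 0.36), and it was the only other hypoxia target higher beyond counting error in sh1.

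The 2 shRNA libraries were also set against each other, which does not use the control. sh2 was lower than sh1 beyond counting error in 14 of the 32 members, beside 23.8% of all genes, and higher in 10, beside 21.0%. Abundant genes pass this rule more often, and these shares of all genes were not matched to the members for abundance. All 3 transporters were among the lower ones, with ratios of sh2 to sh1 of -0.57 for SLC2A3, -0.20 for SLC2A1 and -0.10 for SLC16A3. So were HIF1A, EGLN1 at -0.37 (-0.45 to -0.30), NDRG1 at -0.41 (-0.50 to -0.32), MXI1 at -0.46 (-0.72 to -0.22) and PKM at -0.26 (-0.27 to -0.24). Of the higher ones ALDOA, whose counts are uncertain, was at 0.72 (0.28 to 1.21), EGLN3 was at 0.35 (0.07 to 0.63), GPI at 0.16 (0.12 to 0.19) and GAPDH at 0.11 (0.09 to 0.13). For HK2 the interval held 0 (-0.15 to 1.35). The mitochondrial share also differed between the 2 shRNA libraries, 5.13% against 7.04%, and its part in these values was not tested.

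Other genes of the same and neighbouring pathways were counted from lists. A list of 27 further HIF targets had a median ratio of 0.00 in sh1 and -0.06 in sh2. Of these VEGFA, the angiogenic growth factor, had 1191 counts in Control-sh, 494 in sh1 and 463 in sh2, with ratios of -1.37 (-1.52 to -1.22) and -1.44 (-1.60 to -1.29). The secreted glycoprotein STC2 had 4390, 1402 and 1464 counts and the lipoprotein receptor VLDLR had 1122, 323 and 357, so these 3 of 27 were each more than 2-fold lower in both shRNA libraries, beside 1.38% of all genes. MIR210HG, the host transcript of a hypoxia-induced microRNA, had 7, 22 and 32 counts in Control-sh, sh1 and sh2, and its ratios were 1.33 (0.28 to 3.02) and 1.85 (0.91 to 3.54). It was the only one of the 27 at least 2-fold higher in both, beside 1.19% of all genes, and like HK2 it passed the limit of 1 CPM only through the shRNA libraries. The median of the list stood near that of all genes.

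Of 10 genes of the oxygen-sensing machinery outside the 33, 9 passed the limit and 0 were 2-fold changed in both libraries, beside the same 1.19% higher and 1.38% lower of all genes. Ranked by the smaller of the 2 changes, the lowest was EPAS1, the second HIF alpha subunit, with 13088 counts in Control-sh, 9742 in sh1 and 7573 in sh2 and ratios of -0.53 (-0.56 to -0.49) and -0.87 (-0.91 to -0.83). By the same ranking the highest was CUL2, the scaffold of the ligase that marks HIF subunits, at 0.17 (0.03 to 0.30) and 0.12 (-0.01 to 0.26). The pentose phosphate pathway branches from glycolysis after hexokinase, and its 7 genes had medians of -0.12 and -0.03. Its transketolase TKT had 37307, 32956 and 28622 counts in Control-sh, sh1 and sh2 and was the lowest of the 7 by the smaller change, at -0.28 (-0.30 to -0.26) and -0.46 (-0.49 to -0.44). The highest by that measure, the transaldolase TALDO1, was at 0.03 (-0.02 to 0.09) and 0.13 (0.08 to 0.19).

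For 23 genes of pyruvate entry and the citrate cycle the medians were 0.11 and 0.09. Of these, 0 were 2-fold changed in both libraries, beside 1.19% higher and 1.38% lower of all genes. By the smaller change the highest was OGDH, a subunit of the oxoglutarate dehydrogenase complex, with 2265 counts in Control-sh, 3970 in sh1 and 3412 in sh2 and ratios of 0.71 (0.63 to 0.78) and 0.51 (0.43 to 0.59). The lowest by the smaller change was PDHA1, of the pyruvate dehydrogenase complex, at -0.33 (-0.42 to -0.24) and -0.23 (-0.32 to -0.14). A list of 15 genes of gluconeogenesis and glycolytic bypass had medians of 0.02 and -0.11. Of the 15 genes, 11 averaged at least 1 CPM. Among those 11 PCK2 was the only one 2-fold changed in both libraries, beside 1.38% of all genes that were lower. PCK2, the mitochondrial enzyme that makes phosphoenolpyruvate from oxaloacetate, had 1075, 271 and 231 counts and ratios of -2.08 (-2.29 to -1.89) and -2.29 (-2.51 to -2.09). It was thus further from the control than any of the 33 members in sh1 and sh2.

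**Figure D4:**
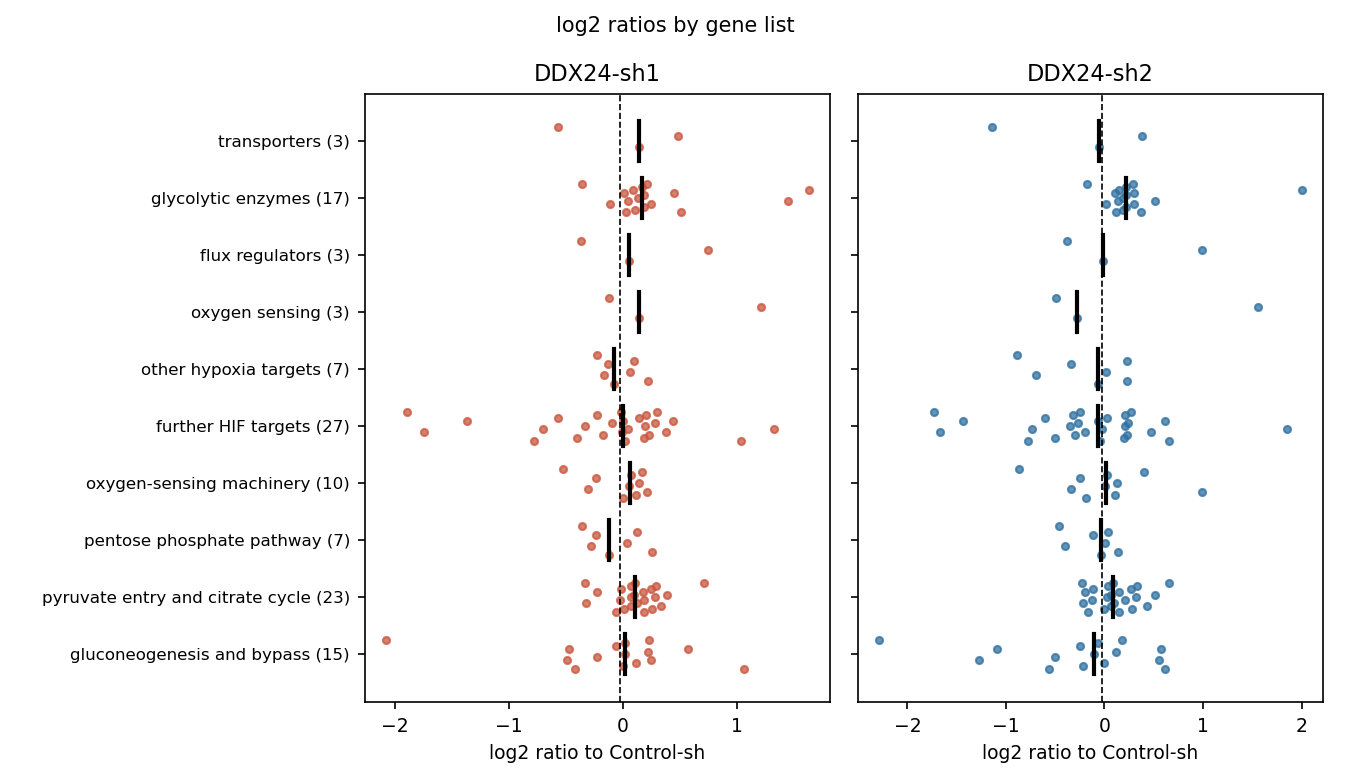
Log2 ratios to Control-sh of each gene in 10 lists, with sh1 on the left and sh2 on the right. Each point is 1 gene, spread vertically only to be seen, the number of genes stands beside each list, the thick bar is the list median and the dashed line is the median of all genes averaging at least 1 CPM. The enzyme medians lie at 0.17 and 0.22, and the lowest points of the further HIF targets lie below -1.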

How the data were processed

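RNA from A549 cells was sequenced in 3 libraries, 1 for each condition. The authors deposited raw counts per gene and FPKM, the count divided by gene length and library size. The submitters' processing notes name Bowtie2 2.0.6, TopHat2 2.0.9, Cufflinks 2.1.1 and Cuffdiff 2.1.1. The counter, its strand setting and the build are not given in the sources used here. The 58735 gene identifiers and their coordinates matched GENCODE 29, which is built on GRCh38.

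Counts were scaled by the TMM method of edgeR 4.0.16 in R 4.3.3. Ratios are of CPM with a prior count of 2, which pulls low counts toward 0, and intervals are exact conditional binomial (Clopper-Pearson). No p-value was computed. Calls were limited to genes averaging at least 1 CPM, which 32 members passed, CA9 being the exception. Levels per length used the deposited gene lengths. The alternatives were DESeq2 1.42.0 size factors, a prior count of 0.5, total counts, log2(FPKM + 0.1) of the deposited values, other limits and thresholds, each shRNA library alone and pseudogene counts added. Motifs were searched in RefSeq windows of 250 bases. The scripts were tested on simulated data, and figures used matplotlib 3.10.9.

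Named were all 33 members and, from each further list, the genes at least 2-fold changed in both shRNA libraries or else the highest and the lowest by the smaller change with a mean of at least 5 CPM. The members and lists were chosen with earlier results of these data known.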

Additional observations from a re-analysis of the deposited data

Results flagged for a closer look

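HIF1A was singled out because its ratios to the same control lay on opposite sides of 0 in the 2 shRNA libraries, each beyond counting error: 0.14 in DDX24-sh1 (sh1) and -0.27 in DDX24-sh2 (sh2). The 1 library per condition gives no estimate of the spread between cultures, so whether the 2 shRNAs differ was not tested. With the FPKM names as given the positions are exchanged.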

How the results depend on the processing

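No paired analysis was possible because each condition has 1 library. With the FPKM under the names as given, SLC2A1 in sh1 was -0.0444, HIF1A was -0.26 in sh1 and 0.16 in sh2, and NDRG1 in sh2 was 0.0811, each of the opposite sign, and the enzyme median in sh1 was 0.23, as the names are exchanged between the 2 kinds of values. With members of at least 10 CPM only, the median of the other hypoxia targets was 0.0686 in sh1 and 0.0123 in sh2, above 0 instead of below it, and the gap to the enzymes in sh1 was 0.0828. Members at least 2-fold higher in both libraries, 2 by the counts, numbered 1 with the FPKM under either set of names, 0 at a limit of 10 CPM, which removes HK2 and EGLN3, and 3 at 1.5-fold. Members 2-fold lower numbered 1, SLC2A3, when sh2 was taken alone. Without PKM, chosen after seeing the data, the summed enzymes were 0.16 and 0.15. Median ratios of all genes stayed between -0.03 and 0.0029 over the scalings tried. Depth limits CA9, HK2, PDK1, ANKRD37, EGLN3, ALDOA and ALDOC, each with under 100 control counts.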
